A study of Homo sapiens with 4 samples.

Results

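Splice junctions that the annotation gives to more than 1 gene were examined in ribosome profiling data of K562, a chronic myeloid leukaemia line with erythroid traits, and HepG2, a line from a human liver tumour. The members are all junctions whose gene field names several genes, which came to 6033 of 350863 junctions, beside 344830 junctions of 1 gene. The series holds 2 samples of K562 and 2 of HepG2, and nothing in the labels says whether they came from separate cultures. All cells were lysed in the presence of cycloheximide, which holds elongating ribosomes on the message. Ribosome-protected RNA fragments of about 29 nt were sequenced after removal of ribosomal RNA. Each line has 1 table of junction read counts in which its samples are pooled, so no comparison below has a replicate check. Intervals cover counting error only, and reads that carry no molecular identifier cannot be taken for separate molecules. The markers matched the labels. Of the K562 markers, RHAG had 7365 uniquely mapped reads in K562, GATA1 had 776, GYPB had 1279, MYB had 3091 and LMO2 had 587, while in HepG2 MYB had 1 and the others 0. The HepG2 markers (ALB, AFP, APOB, HNF4A, FGB and TF) had 250 in K562 and 980072 in HepG2.

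A junction can belong to several annotated genes for different reasons. In a readthrough gene, transcription runs past the end of one gene into its neighbour, and splicing joins exons of both, so that the annotation lists a further gene, named after both parents, that repeats the junctions of each. In clusters such as UGT1A and the protocadherins, many genes each have their own leading exon and splice it to a common set of later exons. In other cases a host gene of small RNAs, a gene named as antisense to some gene or a gene known only by a clone name runs over exons of a better studied gene. A junction lies on 1 strand, so a gene named as antisense is not antisense to the partner with which it shares the junction. A ribosome footprint on a common junction cannot be assigned to 1 of these genes. A footprint on a junction that only 1 of them holds can, and in a readthrough gene the junction that leads from the upstream into the downstream parent (here called the bridging junction) is held by the readthrough transcript alone.

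The 5 bridging junctions with the most reads among readthrough genes known by their symbol are shown first, each with the most-read junctions that leave the same donor or reach the same acceptor, because the difference between these sequences is what allows a footprint to be assigned. Each run holds 15 bases of the exon before the junction in lower case and 15 bases of the exon after it in capitals, read 5′ to 3′ on the gene's strand from GENCODE transcripts, release 29 (GRCh38). The positions given are those of the intron.
NME1-NME2, bridging, chr17:51161273-51166826, plus strand: catacaagttggcagGACCATGGCCAACCT
NME1, same donor, chr17:51161273-51161727, plus strand: catacaagttggcagGAACATTATACATGG
NME2, same acceptor, chr17:51166498-51166826, plus strand: ccctccagcttcccgGACCATGGCCAACCT
RBM14-RBM4, bridging, chr11:66617058-66639699, plus strand: gtgacgtggtgaaagGCTCTTGTCAGGATG
RBM14, same donor, chr11:66617058-66624213, plus strand: gtgacgtggtgaaagACTACGCGTTTGTTC
RBM4, same acceptor, chr11:66638753-66639699, plus strand: ctggtttctgtgcggGCTCTTGTCAGGATG
SYS1-DBNDD2, bridging, chr20:45365687-45408459, plus strand: caacgccctcacctgGAGCTGACATGGACC
SYS1, same donor, chr20:45365687-45366874, plus strand: caacgccctcacctgTGCCCTGGGCTTGCT
DBNDD2, same acceptor, chr20:45406733-45408459, plus strand: gcgccagcgctgcagGAGCTGACATGGACC
TMED7-TICAM2, bridging, chr5:115581316-115616317, minus strand: aagagtggcctattgATTGAAAAGAAATGC
TICAM2, same acceptor, chr5:115581316-115602096, minus strand: ggcgctcgcctgcagATTGAAAAGAAATGC
RNASEK-C17orf49, bridging, chr17:7014278-7015061, plus strand: cgcaaggaatacatgGTCGGAGAGATCTTC
C17orf49 and RNASEK-C17orf49, same acceptor, chr17:7014879-7015061, plus strand: tcagcgtccacaaagGTCGGAGAGATCTTC
In 3 of these loci the bridging junction lands just upstream of the annotated start codon of the downstream parent. The start codon begins 4 bases into the exon in NME2, 8 bases into it in DBNDD2 and 12 bases into it in RBM4, and in TICAM2 it lies 59 bases into the exon. After the NME1 donor, the bridging acceptor and the acceptor within NME1 have the same base at 6 of 15 positions.

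The 6033 shared junctions fell into 1349 sets of genes, and 2214 gene identifiers took part. Of the sets, 1283 were pairs with 5840 junctions, 56 held 3 genes, 7 held 4 genes, and the largest held 9 UGT1A genes, 15 alpha protocadherin genes and 22 gamma protocadherin genes. By their symbols, 227 sets with 1283 junctions were readthrough sets. Another 34 sets with 97 junctions held a symbol that ends in -AS, -IT, -OT or -DT or that names a small RNA or its host. These are called antisense and host gene sets below. A further 6 sets with 10 junctions belonged to first exon clusters. The other 1082 sets with 4643 junctions overlapped in other ways, and 896 of these named a gene known only by a clone name. In 762 of the 1082 sets, 1 gene had only transcripts that the annotation tags as readthrough, so that most sets outside the readthrough symbols also hold readthrough models. The annotation release used for names held 2140 of the 2214 identifiers.

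Shared junctions carried 265419 uniquely mapped reads in K562 and 320502 in HepG2. This was 3.54% of the junction reads of K562 (95% interval 3.53 to 3.56) and 3.23% of those of HepG2 (3.22 to 3.24). A larger part of them joined coding exons than among junctions of 1 gene (83.3% against 61.8%), and more of them had a read (51.1% against 35.1% in K562, and 51.5% against 35.8% in HepG2). Their introns were shorter, with a median of 1200 bases against 1879.5. Uniquely mapped reads made up 65.5% of the mapped reads on shared junctions in K562 and 74.0% in HepG2, against 74.4% in K562 and 83.1% in HepG2 on junctions of 1 gene. Readthrough sets had the lowest such share, with 54.5% in K562 and 68.0% in HepG2. In the set of RPL17, a ribosomal protein gene, and its readthrough gene RPL17-C18orf32, 8.75% of the mapped reads over both tables were unique. In the set of EIF4A1, the helicase of the cap-binding complex, with SENP3-EIF4A1 and AC016876.2, it was 25.9%.

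Where the partners of a shared junction both code across it, most use 1 reading frame. At 2180 junctions every partner codes and a common frame exists, and these held 53.7% of the shared reads in K562 and 53.9% in HepG2. At 39 junctions every partner codes but no frame is common, and these held 3.11% of the shared reads in K562 and 2.77% in HepG2. The junction of MIF, a cytokine, with AP000350.4 led them, with 4325 K562 reads and 5841 HepG2 reads. The next was 1 junction of PSMA1, a proteasome subunit, with AC018523.2, at 2793 K562 reads and 2079 HepG2 reads. At 1844 junctions only some of the partners code, and these held 29.8% of the shared reads in K562 and 31.8% in HepG2.

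Of the 1349 sets, 447 had no uniquely mapped read, 291 had fewer than 20 over both tables, and 611 were compared between the lines. A set was called when the whole 95% interval of the K562 to HepG2 ratio lay past 2-fold, with the tables scaled by TMM factors of genes with their own junctions. By this rule 80 sets (13.1%) were higher in K562 and 121 (19.8%) were higher in HepG2, while among 10956 genes with junctions of their own the shares were 16.8% and 21.9%. The share of sets called was somewhat below this background in both directions. The sets had a median of 257 reads and the single genes one of 425, and whether the lower shares come with this depth was not tested. No RNA sequencing was used beside the footprints, so more message and more ribosomes per message cannot be told apart. With scaling by total reads, 113 sets were higher in K562 and 98 in HepG2, so that the share of K562 among the calls was 53.6% in place of 39.8%. That scaling moved the median log2 ratio of the single genes to 0.41, against -0.01 with TMM. Junction by junction, 204 of 1963 shared junctions were higher in K562 (10.4%) and 399 were higher in HepG2 (20.3%), against 10.3% and 17.6% of 68942 junctions of 1 gene. Readthrough sets were called in 28 of 135 cases toward K562 (20.7%) and in 30 toward HepG2 (22.2%). Other overlapping sets were called in 49 of 471 cases toward K562 (10.4%) and in 91 toward HepG2 (19.3%). The plot of set reads shows both classes spread along the diagonal, with the called sets on either side.

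**Figure D1:**
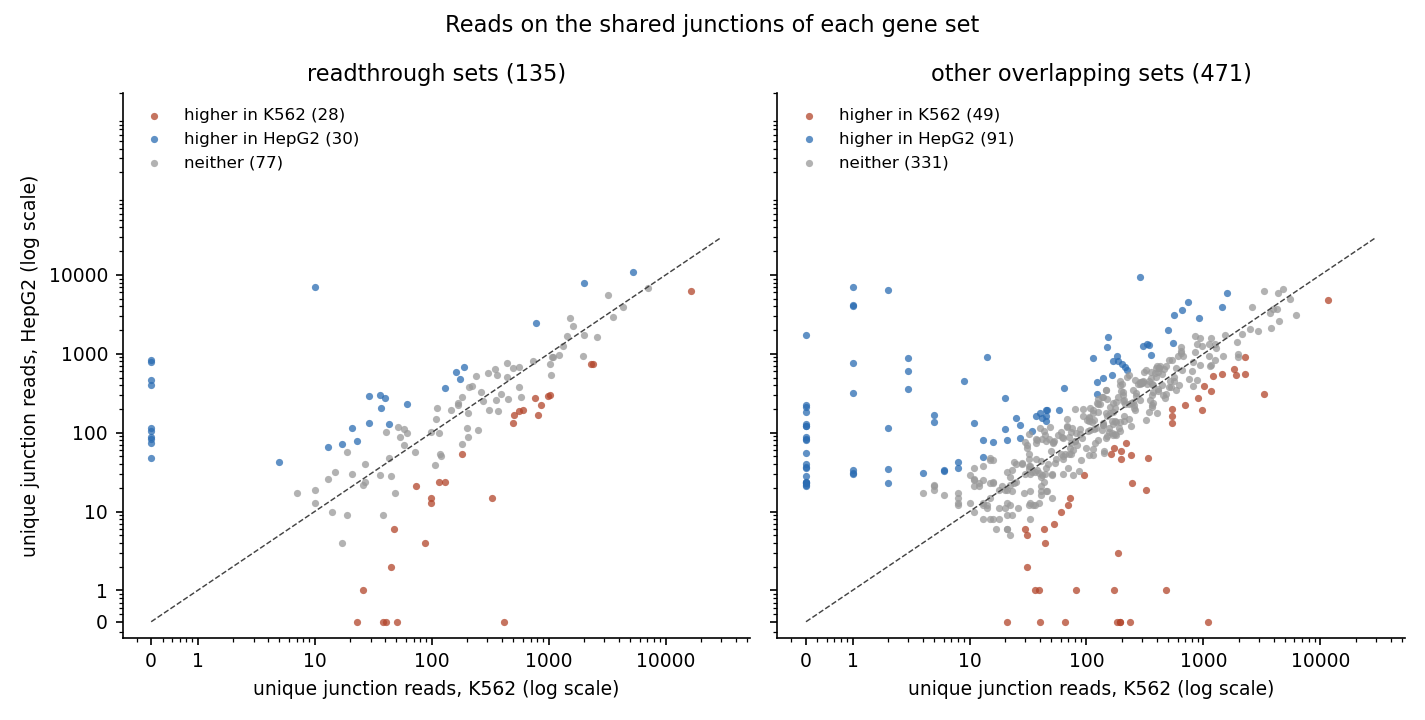
Uniquely mapped reads on the shared junctions of each gene set in K562 (horizontal) and HepG2 (vertical), on log axes with 0 set apart, for 135 readthrough sets and 471 other overlapping sets. Each point is a set, coloured by call, and the dashed line marks equal reads. Points on the left edge include IGF2 and INS-IGF2 with 0 K562 reads and 467 HepG2 reads, and points at the bottom include INMT-MINDY4 and MINDY4 with 415 K562 reads and 0 HepG2 reads.

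The 5 readthrough sets furthest toward HepG2, ranked by the bound of their interval nearest to an equal level, had 0 to 10 reads in K562 and 407 to 7116 in HepG2. APOC2, the cofactor of lipoprotein lipase, and APOC4-APOC2 had 10 K562 reads and 7116 HepG2 reads, a log2 ratio of -9.48. FXYD2, a modulator of the sodium pump, and FXYD6-FXYD2 had 0 K562 reads and 830 HepG2 reads. SAA4, a serum amyloid A protein, and SAA2-SAA4 had 0 K562 reads and 791 HepG2 reads. With 0 counts taken at the floor of 3 counts per table, the FXYD2 set was 278-fold and the SAA4 set 265-fold higher in HepG2. Such values at the floor are point values and not lower bounds. IGF2, the insulin-like growth factor, and INS-IGF2 had 0 K562 reads and 467 HepG2 reads, an excess of 156-fold in HepG2 at the floor. AS3MT, an arsenic methyltransferase, and BORCS7-ASMT had 0 K562 reads and 407 HepG2 reads, an excess of 136-fold in HepG2 at the floor.

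Toward K562, the 5 sets ranked first by the bound of their interval nearest to an equal level had 38 to 415 reads in K562 and 0 to 15 in HepG2. MINDY4, a deubiquitinase, and INMT-MINDY4 had 415 K562 reads and 0 HepG2 reads, an excess of 138-fold in K562 at the floor. A set of the same genes with AC004691.2 had 51 K562 reads and 0 HepG2 reads, and TM4SF19 with TM4SF19-TCTEX1D2 had 41 in K562 and 0 in HepG2. MSH5, a MutS homologue of meiotic recombination, and MSH5-SAPCD1 had 331 K562 reads and 15 HepG2 reads, with a log2 ratio of 4.46. TRIM6, a TRIM family ubiquitin ligase, and TRIM6-TRIM34 had 38 K562 reads and 0 HepG2 reads. On junctions of their own, the parents of 3 of these readthrough genes had reads and the readthrough genes had none. MINDY4 had 38 such reads in K562 and 0 in HepG2, MSH5 had 12 in K562 and 0 in HepG2 and TRIM6 had 15 in K562 and 0 in HepG2, while INMT-MINDY4, MSH5-SAPCD1 and TRIM6-TRIM34 had 0 in both lines. TM4SF19 and its readthrough gene had none of their own in either line.

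The most one-sided values in each direction lay in other overlapping sets, though not every set named here exceeded the readthrough sets above. All but PEG3 with ZIM2 have a partner that is clone-named, without a symbol or a pseudogene. SERPINA3, the acute-phase antichymotrypsin, and AL049839.2 had 1 read in K562 and 7053 in HepG2, a HepG2 to K562 ratio of 7086 with an interval of 1271 to 279917. TF, transferrin, and the pseudogene TFP1 had 2 K562 reads and 6401 HepG2 reads on 1 junction. The complement genes CFB and C2 each share junctions with AL645922.1. The CFB set had 1 read in K562 and 4167 in HepG2, and the C2 set had 1 in K562 and 4003 in HepG2. PEG3, an imprinted zinc finger gene, and its neighbour ZIM2 had 0 K562 reads and 1735 HepG2 reads. Toward K562 stood SLC43A3, a purine base transporter, with AP000781.2, at 1084 K562 reads and 0 HepG2 reads. ACE, the angiotensin-converting enzyme, and AC113554.1 had 479 K562 reads and 1 HepG2 read. EXOC3L2 with ENSG00000130201 had 234 in K562 and 0 in HepG2, TPTEP1 with AP000547.3 had 194 in K562 and 0 in HepG2, and SYCP2L with AL024498.2 had 193 in K562 and 0 in HepG2.

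Several of the sets with the most reads belong to widely used genes, and some of these were near equal in the lines. HSPE1, the mitochondrial co-chaperonin, and HSPE1-MOB4 had 7077 K562 reads and 6873 HepG2 reads on 1 junction, a ratio of 1.02 (0.991 to 1.06). NDUFA13, a subunit of respiratory complex I, and AC011448.1 had 5521 in K562 and 4918 in HepG2. CSNK2B, the regulatory subunit of casein kinase 2, and AL662899.2 had 4790 in K562 and 6586 in HepG2. PSMA1 and AC018523.2 were called toward K562, with 11641 K562 reads and 4808 HepG2 reads and a ratio of 2.41 (2.33 to 2.49). The 7 junctions of that set did not move by 1 factor. Those with over 300 reads ranged from a ratio of 1.34 (1.26 to 1.42) to one of 5.68 (5.15 to 6.29). TXNDC5, a disulfide isomerase of the endoplasmic reticulum, and BLOC1S5-TXNDC5 were called toward HepG2, with 1995 K562 reads and 7973 HepG2 reads. The NEDD8 set, which holds the ubiquitin-like modifier of cullins and NEDD8-MDP1, had 5304 K562 reads and 10999 HepG2 reads. Its ratio of 0.480 (0.464 to 0.496) lay just past the 2-fold line, and it was not called without its most-read junction. Among called sets with at least 3 junctions of 10 or more reads, every such junction lay on 1 side of equal in 33 of 40 sets called toward K562 and in 64 of 67 called toward HepG2. Among uncalled sets this held in 65 of 203. The calls were made from the sums of these same junctions, so the counts are no independent check of them.

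The set with the most reads of all, NME1 with NME1-NME2, owed its call to 1 junction in the 5′ untranslated region. NME1 and NME2 encode nucleoside diphosphate kinases. Over 5 junctions the set had 16490 K562 reads and 6270 HepG2 reads, with a ratio of 2.62 (2.54 to 2.70). The junction chr17:51153663-51155650 (GRCh38, plus strand), which lies ahead of the coding sequence of NME1, held 14082 of the reads in K562 and 4062 in HepG2, for a ratio of 3.45 (3.33 to 3.57). The 3 coding junctions of the set together had 2360 K562 reads and 2187 HepG2 reads, with a ratio of 1.07 (1.01 to 1.14), and without the most-read junction the set's log2 ratio was 0.12. NME2 showed the same split between its leading junction and its coding junctions. Its own 5′ untranslated junction, shown above as the competitor at the bridging acceptor, had 1144 K562 reads and 236 HepG2 reads, with a ratio of 4.82 (4.19 to 5.57). The start codon of NME2 begins 4 bases into the exon after this junction, so a footprint on it can also cover the start codon. The 4 coding junctions that NME2 shares with NME1-NME2 had 3224 K562 reads and 5645 HepG2 reads, with a ratio of 0.568 (0.544 to 0.594). The bridging junction between the genes had 10 K562 reads and 8 HepG2 reads.

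**Figure D2:**
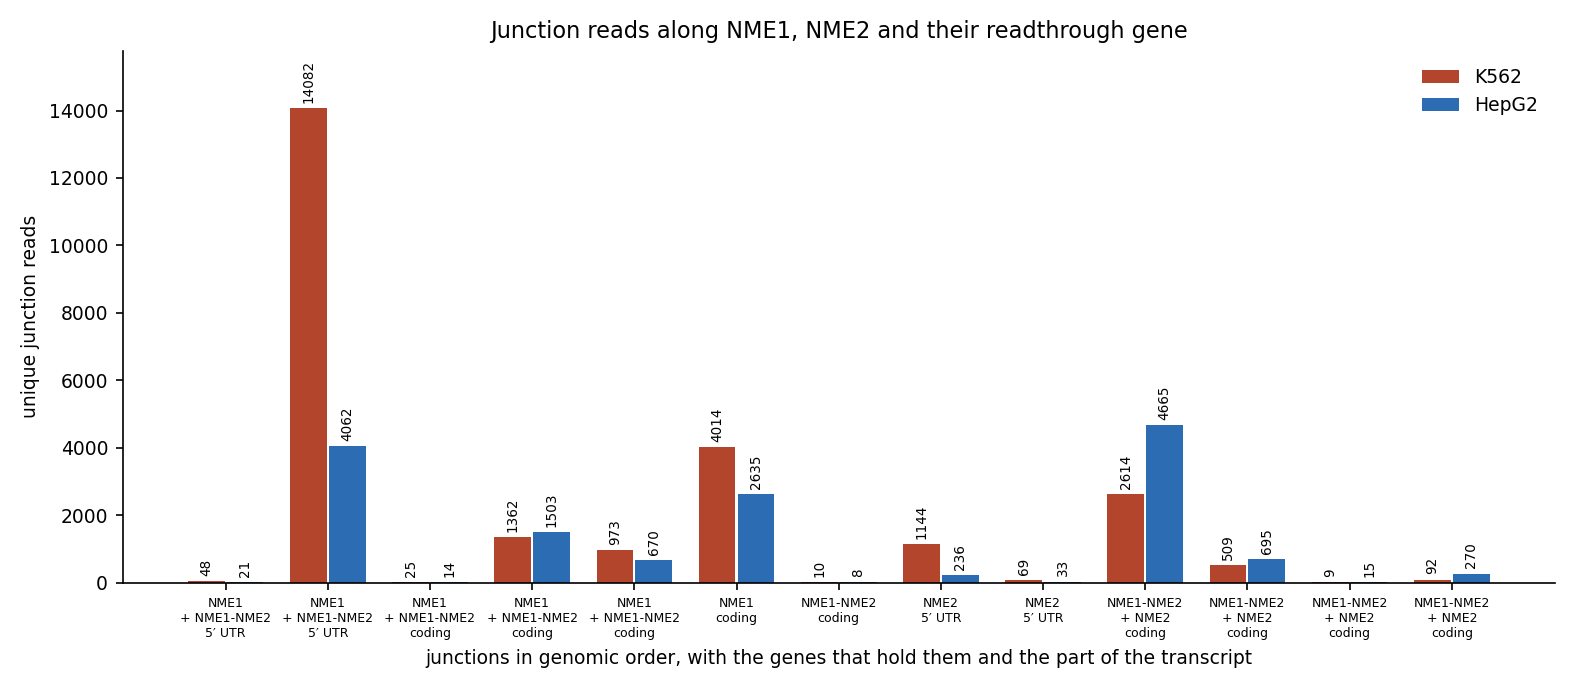
Uniquely mapped reads on the junctions of the NME1 and NME2 locus in genomic order, K562 bars left of HepG2 bars, with the genes that hold each junction and its part of the transcript under the axis. Junctions with 20 or more reads and the bridging junction are drawn. The tallest bars are the 5′ untranslated junction of NME1 and NME1-NME2, with 14082 K562 reads and 4062 HepG2 reads, and the bridging junction has 10 in K562 and 8 in HepG2.

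An excess of K562 at 5′ untranslated junctions was not particular to NME1. Of 67 shared junctions in 5′ untranslated regions with 20 or more reads, 24 were higher in K562 (35.8%) and 8 were higher in HepG2 (11.9%). Among 1879 coding shared junctions, 172 were higher in K562 (9.15%) and 390 were higher in HepG2 (20.76%). The same contrast held for junctions of 1 gene. Of 3060 such junctions in 5′ untranslated regions, 25.8% were higher in K562 and 10.4% were higher in HepG2. Of 64944 coding junctions of 1 gene, 9.21% were higher in K562 and 18.03% were higher in HepG2, near the shares of coding shared junctions. The median log2 ratio was 0.67 at shared and 0.87 at single-gene 5′ untranslated junctions, against -0.40 at shared and -0.18 at single-gene coding junctions. In readthrough sets, 5′ untranslated junctions held 20.1% of the reads in K562 and 6.12% in HepG2, and without the NME1 set these shares were 4.64% in K562 and 1.88% in HepG2. In MATR3 with SNHG4, the set with the most reads among those of antisense and host genes, all 6 junctions lie in the 5′ untranslated region of MATR3, a nuclear matrix protein. It had 1537 K562 reads and 382 HepG2 reads, with a ratio between 3.58 and 4.49 by its 95% interval. A single junction (chr5:139276151-139278326, GRCh38, plus strand) held 1516 of these in K562 and 364 in HepG2, and the set was not called without it.

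Antisense and host gene sets were few. Only 5 had 20 or more reads, of which 3 (60%) were higher in K562 and 0 in HepG2, against 16.8% and 21.9% of single genes. With so few sets these shares cannot be compared. Beside MATR3 and SNHG4, these were ARHGEF10, a guanine nucleotide exchange factor, with KBTBD11-OT1 at 134 K562 reads and 0 HepG2 reads, and SEC31A, a coat protein of COPII vesicles, with THAP9-AS1 at 65 in K562 and 12 in HepG2. RCC1, the exchange factor for Ran, with the snoRNA host gene SNHG3 had 150 K562 reads and 123 HepG2 reads and was not called. ARMH4 with PSMA3-AS1 had 91 in K562 and 60 in HepG2 and was not called. RCC1 itself had 1868 K562 reads and 1412 HepG2 reads on its own junctions. SEC31A had 2133 K562 reads and 4575 HepG2 reads on its own junctions, the other way from its shared set. ARHGEF10 had 6 of its own in K562 and 0 in HepG2.

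Among the annotated transcripts, only a readthrough transcript can give a footprint on a bridging junction. Bridging junctions could be defined in 93 loci, which held 157 of them, and 31 of these in 26 loci had a uniquely mapped read. Together they had 79 K562 reads and 81 HepG2 reads. On the junctions that the same readthrough genes share with their parents there were 69454 K562 reads and 79851 HepG2 reads. Bridging reads were thus 0.114% of the sum in K562 (0.0900 to 0.142) and 0.101% in HepG2 (0.0805 to 0.126), and the intervals overlap. With all mapped reads the order turned, with 120 bridging reads or 0.0970% in K562 (0.0804 to 0.116) and 151 or 0.144% in HepG2 (0.122 to 0.169). These intervals did not overlap, but a read that maps to several places can enter several of the counts. The intervals therefore do not cover the error of such counts, and no difference between the lines is drawn from them. Per junction, the uniquely mapped bridging reads came to 0.503 in K562 and 0.516 in HepG2, against 72.6 in K562 and 83.4 in HepG2 for shared junctions. With readthrough genes taken by the annotation's tag rather than by symbol, 432 loci had 630 bridging junctions with 161 K562 reads and 165 HepG2 reads, or 0.0902% in K562 and 0.0791% in HepG2 of the sum.

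Of the 24 loci with 1000 or more shared reads, 12 had no uniquely mapped bridging read in either line and 23 had fewer than 10. The exception was NME1-NME2, where the 10 bridging reads in K562 were 0.0507% of the locus (0.0243 to 0.0932) and the 8 in HepG2 were 0.0671% (0.0290 to 0.132). At the donor of that junction the bridging reads were 0.249% in K562, out of 4024, and 0.303% in HepG2, out of 2643. In HSPE1-MOB4, which joins HSPE1 to a subunit of the STRIPAK phosphatase complex, there was 1 bridging read beside 7521 shared reads in K562 and 7 beside 7375 in HepG2. In APOC4-APOC2, no uniquely mapped bridging read stood beside 7116 shared reads on the APOC2 side in HepG2. Among uniquely mapped reads only, this allows a share of up to 0.0422% at the floor of 3 counts and of up to 0.0518% by the exact interval. When all mapped reads were counted, the APOC4-APOC2 bridging junction held 0 K562 reads and 14 HepG2 reads, so these limits do not bound it there. With all mapped reads, 3 of the 12 loci had a bridging read. The plot of shared against bridging reads shows the distance between the 2 kinds of junction in each locus and line.

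**Figure D3:**
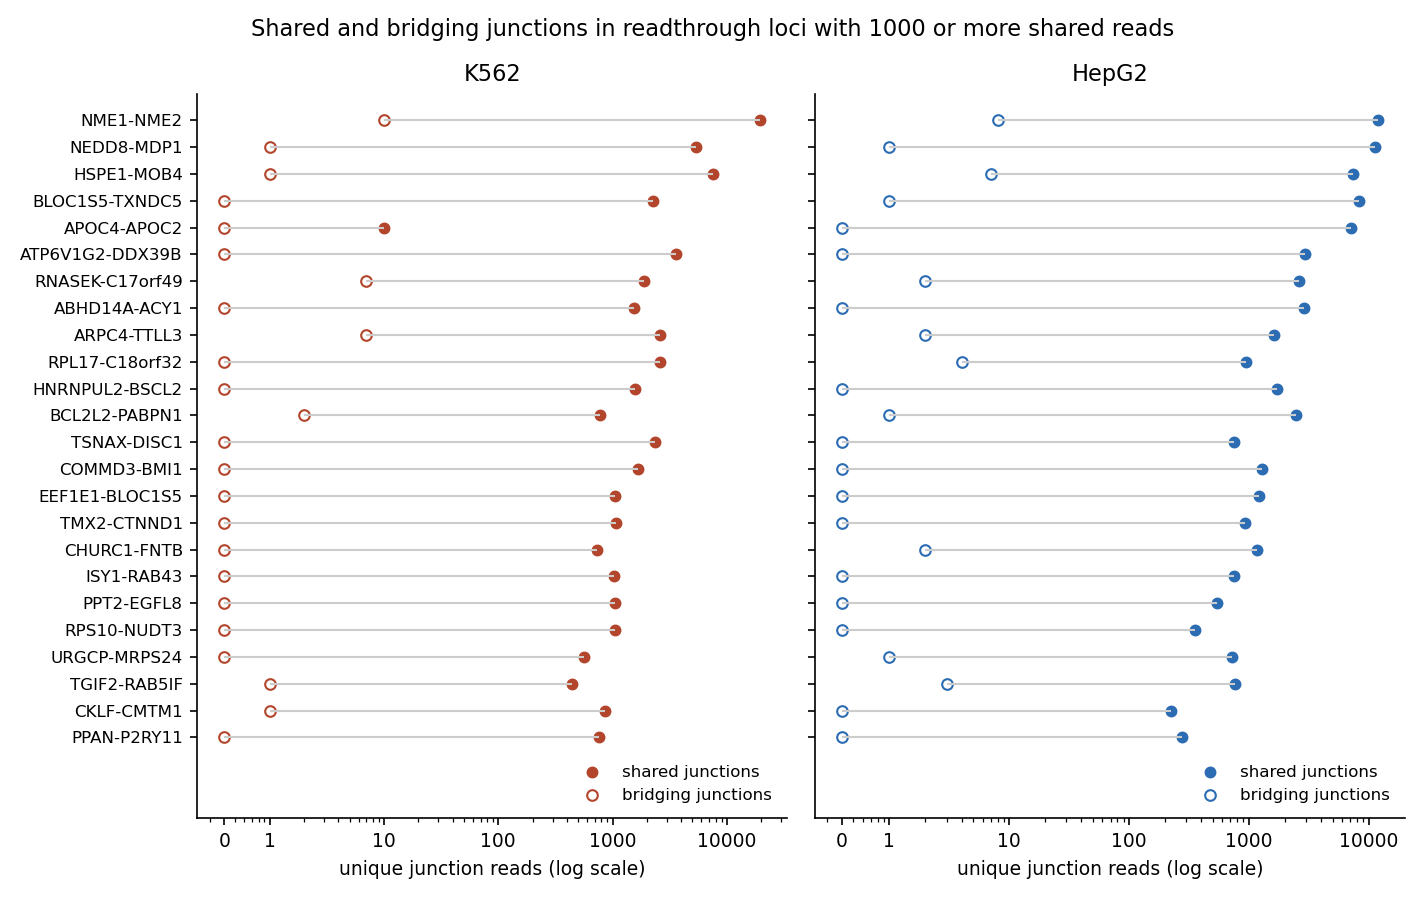
Uniquely mapped reads on shared (filled) and bridging (open) junctions in the 24 readthrough loci with 1000 or more shared reads, K562 in the left panel and HepG2 in the right, on log axes with 0 set apart. The open circles sit at 0 to 10 reads, while most filled circles lie above 100 reads, with APOC4-APOC2 in K562 at 10.

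Some loci with fewer shared reads had a larger part of their reads on the bridge. The bridging junction with the most reads was that of TMED7-TICAM2, which leads from TMED7, a cargo receptor of the early secretory pathway, to TICAM2, an adaptor of Toll-like receptor signalling. It had 23 K562 reads and 4 HepG2 reads, beside 180 shared reads in K562 and 280 in HepG2. The bridge thus took 11.3% of the locus in K562 (7.32 to 16.5) and 1.41% in HepG2 (0.385 to 3.57), and these intervals do not overlap. Of the 24 reads at its acceptor in K562, 23 came over the bridge, and all 4 in HepG2 did. The annotation places this junction in a 3′ untranslated region, and no transcript codes across it. The intervals of this locus were set against each other after the values were seen.

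RBM14-RBM4 joins the genes of an RNA-binding coactivator and of a splicing regulator. Its most-read bridging junction had 7 K562 reads and 7 HepG2 reads, which were 10.4% of the reads at its donor in K562 and 8.05% in HepG2. Over its 3 bridging junctions the locus had 7 K562 reads and 9 HepG2 reads, or 14.6% (6.07 to 27.8) of the sum in K562 and 8.04% (3.74 to 14.7) in HepG2. SYS1-DBNDD2 joins a Golgi membrane protein gene to a dysbindin family gene. Its bridge had 4 K562 reads and 10 HepG2 reads, which was 16.7% of 24 reads at the acceptor in K562 and 30.3% of 33 reads in HepG2. RNASEK-C17orf49 had 7 bridging reads in K562 and 2 in HepG2, or 6.19% of the reads at the acceptor in K562 and 6.25% in HepG2. ARPC4-TTLL3, which begins in a subunit of the Arp2/3 complex, had 6 reads on its main bridge in K562 and 2 in HepG2. ZHX1-C8orf76 had 4 in K562 and 4 in HepG2, PTGES3L-AARSD1 had 3 in K562 and 3 in HepG2, and SMURF2P1-LRRC37BP1 had 0 in K562 and 7 in HepG2. NDUFC2-KCTD14, which begins in another complex I subunit, had 0 in K562 and 6 in HepG2, and BLOC1S1-RDH5 had 5 in K562 and 0 in HepG2. The remaining bridges had at most 4 reads in a line. At sites with 20 or more reads in each table, 69 bridging shares could be compared and 0 differed by 20 points or more with intervals apart. The greatest difference was 16.7 points. The highest bridging share at these sites was 16.7% in K562 and 30.3% in HepG2, so few of them could have differed by 20 points. Over all junctions, 2.29% of 45145 shares did so with intervals apart.

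The junctions on the upstream and on the downstream side of a readthrough gene could be compared separately in 28 loci. In 6 loci both sides were called toward the same line, in 10 neither side was called, in 11 only 1 side was called and in 1 the sides were called toward opposite lines. The intervals of the sides were apart in 16 loci. No such counts were made over pairs of other genes, so whether these sides differ more or less often than unrelated genes was not tested. RPS10-NUDT3 had sides that matched closely. RPS10, a ribosomal protein, had 501 K562 reads and 168 HepG2 reads, and NUDT3, a diphosphoinositol polyphosphate hydrolase, had 559 in K562 and 186 in HepG2, with log2 ratios of 1.57 and 1.58. PRR5-ARHGAP8 had opposite calls. PRR5, a component of the mTORC2 kinase complex, had 37 K562 reads and 205 HepG2 reads, and ARHGAP8, a GTPase activator, had 45 in K562 and 2 in HepG2. Neither locus had a bridging read. P2RX5-TAX1BP3 has no bridging junction by the definition used, and its sides were also called apart. P2RX5, an ATP-gated channel, had 99 K562 reads and 13 HepG2 reads, and TAX1BP3, a PDZ domain protein, had 131 in K562 and 364 in HepG2. Of 28 readthrough symbols listed for close reading, 26 had a set with enough reads. Their 42 sets were called toward K562 in 8 cases, toward HepG2 in 8 and toward neither in 26, so that each line had 19%, against 16.8% toward K562 and 21.9% toward HepG2 among single genes.

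Reads on junctions held by 1 partner alone show which gene of a set was measured independently. In 215 of the 611 sets every partner had such a read, in 12 several but not all did, in 363 exactly 1 did and in 21 none did. With a minimum of 10 reads per partner, these numbers were 66, 1, 442 and 102. The 94 readthrough genes that have junctions of their own had 0.529 reads per such junction in K562 and 0.451 in HepG2. Their partners, 134 genes, had 19.2 in K562 and 26.3 in HepG2. Clone-named genes of other overlapping sets were as low, with 0.510 in K562 and 0.482 in HepG2 over 335 genes, against 25.8 in K562 and 49.7 in HepG2 for the 521 named genes of such sets. TF, the iron carrier transferrin, held 113638 of these HepG2 reads and 25 of those in K562, and without it the named genes had 25.8 in K562 and 31.3 in HepG2. The plot by kind of gene shows these levels side by side.

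**Figure D4:**
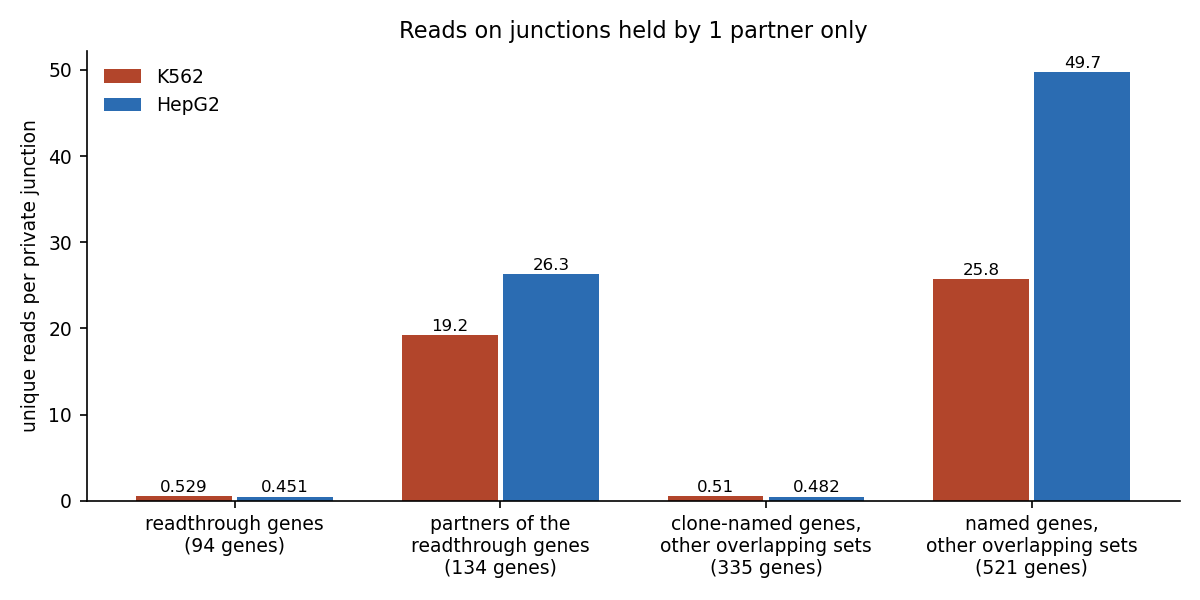
Uniquely mapped reads per junction held by 1 partner only, in K562 (left bars) and HepG2 (right bars), by kind of gene. Readthrough genes and clone-named genes have 0.451 to 0.529 reads per junction, and the partners of readthrough genes and the named genes of other overlapping sets have 19.2 to 49.7.

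For 462 sets, the shared junctions could be set beside the private junctions of the most-read partner. The call was the same in 358 of them, which includes sets called on neither side, and opposite in 3. In 46 only the shared junctions were called and in 55 only the partner was. The ratios lay within 2-fold of each other in 302 sets, and the median absolute difference of the log2 ratios was 0.66. The 3 opposite sets were ADAP1 with COX19, FAU with SYVN1 and SEC31A with THAP9-AS1. COX19, a copper protein of the mitochondrion, had 371 private reads in K562 and 103 in HepG2, a log2 ratio of 1.84, while its junctions shared with ADAP1 had a log2 ratio of -3.23. FAU, which encodes a ubiquitin-like protein joined to a ribosomal protein, had 2903 private reads in K562 and 864 in HepG2, a log2 ratio of 1.74, while its junctions shared with SYVN1, an ubiquitin ligase of the endoplasmic reticulum, were at -1.82. The widest distance was that of LEPR, the leptin receptor, and LEPROT, its overlapping neighbour. LEPR had 1184 private reads in K562 and 16 in HepG2, a log2 ratio of 6.20, and the junctions it shares with LEPROT were at -0.56. LEPROT in turn had 76 K562 reads and 440 HepG2 reads on the most-read junction of its own, a log2 ratio of -2.54. These sets are named after their values were seen.

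Shared junctions also compete with other junctions at their splice sites. Of 844 such shares that could be compared, 20 (2.37%) differed by 20 points or more with intervals apart, against 2.29% of 45145 shares over all junctions. At CKLF, a chemokine-like factor that shares exons with CKLF-CMTM1, the junction chr16:66552794-66563121 took 739 of 880 reads at its donor in K562 (84.0%) and 135 of 230 in HepG2 (58.7%). At an acceptor of COX16, an assembly factor of cytochrome oxidase, the junction shared with SYNJ2BP-COX16 had 78.1% of the site in K562, out of 151 reads, and 54.2% in HepG2, out of 332. DPY30, a subunit of histone methyltransferase complexes, and MEMO1 share a junction that took 32 of 37 reads at its donor in K562 and 13 of 39 in HepG2. At ASPH, an aspartyl hydroxylase gene, a shared junction held 37 of 50 acceptor reads in K562 and 0 of 52 in HepG2, which allows a share of up to 6.85% there by the exact interval. These 4 sites are examples chosen after their values were seen.

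On the shared junctions of the first exon clusters, reads were found in HepG2 alone. The 5 shared UGT1A junctions, of genes for bilirubin and drug glucuronidation, had 0 reads in K562 (exact Poisson interval up to 3.69) and 14 in HepG2 (7.65 to 23.5). The only member with a read on a junction of its own was UGT1A1, the bilirubin transferase, with 0 in K562 and 2 in HepG2. The 2 shared junctions of the gamma protocadherins, which are cell adhesion proteins, had 0 K562 reads and 7 HepG2 reads (2.81 to 14.4). Of the members, PCDHGB4 had 0 private reads in K562 and 1 in HepG2. The 3 shared junctions of the alpha protocadherins had 0 in K562 and 0 in HepG2. The beta protocadherins share no junction. Of them, PCDHB2 had 1 read of its own in K562 and 1 in HepG2, and PCDHB14 had 0 in K562 and 1 in HepG2.

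For 632 genes the shared junctions were the only way to reach 20 reads, since their own junctions had fewer. These were 93 readthrough genes, 334 genes with a clone name or no symbol and 205 others. By shared reads 88 of them (13.9%) were higher in K562 and 130 (20.6%) were higher in HepG2, against 16.8% and 21.9% of single genes. A shared read was counted for every gene that holds its junction, so partners repeat the same reads and are not separate measurements. The shares therefore give no direction for a gene by itself and are not of the same kind as those of single genes. Of the 632 genes, 352 had no read of their own at all, and 251 of these had a clone name or no symbol. Several are widely used genes. HSPE1 had 6 reads of its own in K562 and 6 in HepG2, NDUFA13 had 0 in K562 and 2 in HepG2, and TOMM6, a subunit of the mitochondrial import channel, had 0 in both. PSMA2, a proteasome subunit, had 4228 shared reads in K562 and 3725 in HepG2 and 3 of its own in K562 and 2 in HepG2. CTSD, the lysosomal protease cathepsin D, had 1584 shared reads in K562 and 5872 in HepG2, a log2 ratio of -1.90, and only 0 of its own in K562 and 2 in HepG2. SARNP, an mRNA export factor, had 2273 shared reads in K562 and 919 in HepG2, a log2 ratio of 1.30. Of 655 genes with shared junctions that reached 20 reads on their own junctions, 76 changed their call when shared junctions were added. Calls were gained in 44 and lost in 32 of these, and none turned to the other line.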

How the data were processed

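Ribosome profiling reads of K562 and HepG2 were used as 1 table per line, in which the authors pooled both samples of the line, per the labels. Per the file headers, the authors deposited raw read counts for each annotated splice junction, in 1 column for all mapped and 1 for uniquely mapped reads. The submitters' processing notes name cutadapt, Bowtie2, STAR 2.6.0 and GRCh38 without roles, and the junction counter is not given in the sources used here. Totals of uniquely mapped reads were 7487508 in K562 and 9927809 in HepG2.

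Junctions whose gene field holds more than 1 identifier were grouped by identifiers and classed by symbol. Introns, frames and sequences came from GENCODE release 29. Ratios used TMM factors (edgeR 4.0.16, over 10956 genes with 20 or more reads on junctions of 1 gene) and exact 95% conditional binomial intervals (Clopper-Pearson), computed in Python 3.11.15 with scipy 1.17.1. The code was run on simulated Poisson and binomial counts. These hold no spread between samples or junctions, so they check the code and not the calls. Shares at a splice site needed 20 reads in each table. DESeq2 1.42.0 size factors, total reads, all mapped reads, other minimums and a 99% interval were alternatives. The members, lists and rules were chosen with earlier results of these data known. Named are the 8 sets with the most reads per class, the 5 at each end, the 12 most-read bridging junctions, cluster members with reads, the 10 most-read genes seen through shared junctions and a list of readthrough loci, within which examples were picked. Of the K562 markers, 1 is not reported here.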

Additional observations from a re-analysis of the deposited data

Results flagged for a closer look

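Reads that map to several places lie outside the comparisons, and 56 sets had more than 3 mapped reads without a uniquely mapped one. The junction of AC138811.2 and RPS15A, a ribosomal protein, had 3220 mapped reads in K562 and 4169 in HepG2, or 7389 in all. The junction of AC099329.1 and HIGD1A, a mitochondrial protein of the inner membrane, had 1825 in K562 and 2414 in HepG2, or 4239 in all. The 2 junctions of AC023509.1 and PRR13 had 2250 in K562 and 409 in HepG2, or 2659 in all. No ratio was formed, since the same read can enter several of these counts. SLX1B-SULT1A4 with SULT1A4, a sulfotransferase, had 47 in K562 and 1713 in HepG2, and its near-identical copy SLX1A-SULT1A3 with SULT1A3 had 36 in K562 and 1340 in HepG2.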

How the results depend on the processing

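Leaving out the most-read junction of each set left 41 sets in place of 80 higher in K562, 17 in place of 28 among readthrough sets and 22 in place of 49 among other overlapping sets, over 410 sets that still had enough reads. The share of reads on shared junctions was 4.01% in K562 and 3.61% in HepG2 with all mapped reads, and 2.99% in K562 and 2.74% in HepG2 without the 10 most-read shared junctions. Bridging reads were 120 in K562 (0.0970%) and 151 in HepG2 (0.144%) with all mapped reads, and 161 in K562 (0.0902%) and 165 in HepG2 (0.0791%) with readthrough genes taken by the tag. Without TF the named genes of other overlapping sets had 31.3 private reads per junction in HepG2. With a minimum of 10 private reads, every partner had them in 66 sets and no partner in 102. Under each alternative run, 0 single bridging junctions were counted as different between the lines in their share of a splice site. The other counts of sets, junctions and genes kept within 1.5 times their value under the alternatives run. Of 517 ratios of 77 named sets under alternatives, 14 lost and 4 gained a call and 0 changed sign where called. The alternatives for bridging read counts and without TF, and the comparison of upstream and downstream sides, were added after seeing the data, and with all mapped reads 23 loci had sides with intervals apart in place of 16. No paired analysis was possible because each table pools both samples of a line. For the same reason no replicate could be left out. Bridging junctions had 0 to 23 reads each in a line.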
